A study of Mus musculus with 15 samples.

Results

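The 10 genes described here are Il1a, Il1b, Il1rn, Il6, Tnf, Il19, Csf3, Osm, Lif and Ptgs2, the inflammatory cytokines and the inducible prostaglandin synthase of the injured mouse cortex. The rule lists them by symbol and sets no threshold on a measured value, though the set was proposed with earlier results of these data known. Each symbol was matched to its mouse Ensembl gene ID on GRCm38. All 10 are among the 33223 genes that both count tables list. Every library came from cortex on the injured side, 1 day after a moderate controlled cortical impact, a device-driven blow to the right parietal cortex that serves as a model of traumatic brain injury. All mice, the WT controls included, carried floxed EphA4 alleles (EphA4f/f). The KO mice also carried VeCadCreERT2, an inducible Cre recombinase under the VE-cadherin promoter, which is active in endothelial cells. The tissue was dissociated and separated with CD45 and CD31 microbeads. The libraries hold the CD45 cells, which are leukocytes and microglia, or the flow-through, which is labelled as all other cortical cells. The fits used 7 flow-through libraries (4 WT and 3 KO) and 7 CD45 libraries (3 WT and 4 KO). The sources used here do not give age, sex, the induction of Cre or the animals behind each library, so p-values measure the spread between libraries, which may be technical. No uninjured cortex was analysed here, so no value below measures a response to the injury.

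Total counts ran from 19204814 to 27270907 per flow-through library and from 11574414 to 31337948 per CD45 library. A library labelled flow-through WT replicate 5 had the cytokine levels and markers of a CD45 library and was left out of every fit below. Epha4, the targeted receptor tyrosine kinase, lay at 36 to 43.0 CPM, which are counts scaled to the library total, in the 7 flow-through libraries and at 1.69 to 3.54 CPM in the 7 CD45 libraries. It did not differ between genotypes in either fraction (edgeR adjusted p = 0.849 and 0.989), and neither fraction is an endothelial isolate, so these values do not check the deletion. Ptprc, which encodes CD45, lay at 805 to 1043 CPM in CD45 and at 0.660 to 1.22 CPM in flow-through libraries.

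IL-1α and IL-1β bind the same receptor and start NF-kB signalling through MyD88, and the IL-1 receptor antagonist, encoded by Il1rn, occupies that receptor without starting a signal. TNF acts through a pair of receptors, and IL-6, oncostatin M and LIF share the signalling chain gp130, encoded by Il6st. IL-19 belongs to the IL-10 family, G-CSF (Csf3) drives the production and release of neutrophils, and cyclooxygenase-2 (Ptgs2) makes the precursor of the prostaglandins. Many of these mRNAs are short-lived because AU-rich elements in the 3′ untranslated region, built on the pentamer ATTTA, are bound by decay factors such as the product of Zfp36. In the injured brain such cytokines are known to come from infiltrating myeloid cells, microglia, astrocytes and vascular cells.

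The AU-rich stretches are shown because they are a sequence feature that the choice of genes did not use. In GENCODE M21, 9 of the 10 genes have at least 1 ATTTA in the 3′ untranslated region, against 64.1% of 20246 genes with such a region, and Il1rn has 0. The overlapping form ATTTATTTA is present in Il1b, Tnf and Ptgs2, against 5.81% of all genes. Within each gene's region, the 30-base window with the most copies holds 5 in Tnf, 4 in Ptgs2 and 3 in Il1b, Csf3 and Lif. These windows, of which that of Lif is not printed, lie at chr17:35199679-35199708 for Tnf (minus strand), chr2:129364808-129364837 for Il1b (minus strand), chr11:98702984-98703013 for Csf3 (plus strand) and chr1:150105794-150105823 for Ptgs2 (plus strand), all in GRCm38. Capitals mark ATTTA, read 5′ to 3′ on the mRNA strand.
Tnf: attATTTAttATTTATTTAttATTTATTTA
Il1b: caaccacttacctATTTATTTAtgtATTTA
Csf3: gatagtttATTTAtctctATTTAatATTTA
Ptgs2: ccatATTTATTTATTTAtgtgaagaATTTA
Tnf holds 8 copies of ATTTA in 764 bases and Ptgs2 holds 14 in 2445 bases. Per kilobase the densest are Il6 (14.0 copies) and Tnf (10.5 copies), where the median of all genes is 1.23. A copy is a match of letters and not a measured site.

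Promoters are shown for a pair of genes that were high with the leukocyte genes (Il1b and Tnf) and for the pair with the lowest fitted changes in the flow-through of KO mice (Il19 and Il6). They are the 250 bases before the start site, from RefSeq on GRCm38.p6, at chr2:129371140-129371389 for Il1b (minus strand), chr17:35202008-35202257 for Tnf (minus strand), chr1:130940116-130940365 for Il19 (minus strand) and chr5:30012864-30013113 for Il6 (plus strand). Capitals mark matches to the NF-kB consensus, searched on both strands.
Il1b: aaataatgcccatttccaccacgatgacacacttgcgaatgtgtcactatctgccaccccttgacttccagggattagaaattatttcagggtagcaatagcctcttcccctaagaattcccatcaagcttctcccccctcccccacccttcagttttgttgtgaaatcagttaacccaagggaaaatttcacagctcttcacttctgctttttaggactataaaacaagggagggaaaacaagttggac
Tnf: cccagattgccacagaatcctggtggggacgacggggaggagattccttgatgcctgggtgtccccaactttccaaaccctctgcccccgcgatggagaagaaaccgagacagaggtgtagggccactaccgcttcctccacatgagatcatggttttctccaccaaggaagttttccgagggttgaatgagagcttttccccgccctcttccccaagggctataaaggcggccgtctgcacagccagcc
Il19: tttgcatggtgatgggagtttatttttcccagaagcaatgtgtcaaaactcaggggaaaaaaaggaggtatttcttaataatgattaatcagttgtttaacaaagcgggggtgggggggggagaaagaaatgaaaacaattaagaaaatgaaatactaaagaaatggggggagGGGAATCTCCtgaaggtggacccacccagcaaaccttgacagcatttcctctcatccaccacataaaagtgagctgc
Il6: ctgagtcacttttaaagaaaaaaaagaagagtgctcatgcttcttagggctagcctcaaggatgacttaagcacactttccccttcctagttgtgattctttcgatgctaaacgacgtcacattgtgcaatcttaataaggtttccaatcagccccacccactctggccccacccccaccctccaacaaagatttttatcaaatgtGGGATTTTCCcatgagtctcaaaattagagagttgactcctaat
RefSeq promoters were matched for 8 of the 10 genes, all but Osm and Csf3, and the windows searched run to 50 bases after the start. The NF-kB consensus was found in Il6 (first base at -44 from the start site), Il19 (-77) and Lif (-178), against 8.46% of 32851 promoters. TATAAA, searched on both strands, was found in Il1a (-32), Il1b (-31) and Tnf (-29) and after the start site in 1 of the Il1rn windows, against 13.6% of promoters. The AP-1 motif TGANTCA was found in Il1a, Il1rn, Il6 and Lif (7.81% of promoters), the C/EBP motif TTGCNNAA in Il6 and Ptgs2 (10.8%) and the PU.1 motif GAGGAAG in Il1a and Tnf (13.6%). No matches overlapped within these windows. A window without a match says only that these letters are not in it.

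The first comparison asks which fraction of the injured cortex held the transcripts. Levels separated the 10 genes into 4 patterns: Il1a, Il1b, Il1rn, Tnf and Osm were about 3 orders of magnitude higher in CD45 libraries, Ptgs2, Csf3 and Il6 were higher by smaller factors, Lif did not pass the test, and Il19 was lower. By edgeR, 8 of the 10 genes were called higher in CD45 libraries and 1 lower, where 86.1% of 18098 genes were called, 41.4% higher and 44.7% lower, and 86.6% had an unadjusted p under 0.05. The median log2 fold change of the 10 genes was 6.80, and that of all genes tested was -0.05. The fit scales libraries by TMM, with factors of 1.18 to 1.24 in flow-through and 0.808 to 0.863 in CD45 libraries, so fitted changes lie 0.53 log2 units above those of the CPM values printed here. With library totals alone, a setting added after the data were seen, the median of all genes moved by -0.53, and 5083 genes were called higher and 10738 lower, where TMM gave 7492 and 8091. The calls of the 8 genes and of Il19 held. Upper-quartile scaling moved that median by -0.252 and removal of the GC and length trend by 0.171. In bulk libraries, fewer cells of a type and less RNA per cell cannot be told apart.

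Il1b, the ligand that is secreted after cleavage by caspase-1, had the highest level of the 10 in CD45 libraries. Its flow-through values were 3.37, 5.14, 2.81 and 4.92 CPM in WT and 3.05, 3.49 and 3.92 CPM in KO. In CD45 libraries it reached 3528, 3244 and 2092 CPM in WT and 3179, 3024, 3134 and 3235 CPM in KO. Every CD45 library lay far above every flow-through library, and 1 CD45 WT library, replicate 3, lay below the other 6. The log2 fold change between fractions was 10.18 (SE 0.19, adjusted p = 8.02e-17 by edgeR). Il1a, the ligand that also signals from damaged cells, lay at 0.0952 to 0.315 CPM in flow-through and 181 to 414 CPM in CD45 libraries (log2 fold change 10.68, SE 0.30). Il1rn, the antagonist, lay at 1.17 to 2.55 CPM in flow-through and 1173 to 1827 CPM in CD45 libraries (10.13, SE 0.22). Exons of Il1a overlap Gm14023 over 11.25% of their length and those of Il1b overlap Il1bos over 1.31%, both on the opposite strand, and since the sources used here do not give the strand setting of the counting, those reads may not be told apart.

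Tnf and Osm followed the same separation. Tnf lay at 0.281, 0.406, 0.428 and 0.569 CPM in flow-through WT and 0.500, 0.469 and 0.477 CPM in flow-through KO libraries. In CD45 libraries it lay at 508, 533 and 587 CPM in WT and 494, 585, 619 and 754 CPM in KO. The groups of a fraction overlapped, and the log2 fold change between fractions was 10.83 (SE 0.16, adjusted p = 5.86e-18 by edgeR). Osm, the gp130 ligand of activated myeloid cells, lay at 0.190 to 0.546 CPM in flow-through and 297 to 577 CPM in CD45 libraries (10.44, SE 0.20). Flow-through counts of Il1a, Tnf and Osm were 2 to 14 per library, so the sizes of these 3 changes are imprecise.

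The median flow-through level of these 5 genes was a small share of the median CD45 level, 0.0801% for Tnf, 0.0922% for Il1a, 0.0942% for Osm, 0.110% for Il1b and 0.149% for Il1rn. Leukocyte genes picked to set a scale had shares of 0.103% for Ptprc, 0.0988% for Itgam, 0.108% for Cxcr2, 0.128% for Csf3r, 0.137% for S100a8 and 0.0436% for Lyz2. Summed marker lists had higher shares. These were 3.61% for neutrophil, 1.45% for monocyte and macrophage, 0.895% for border-associated macrophage and 9.78% for microglia markers. Dendritic cell markers had 5.92%, T, NK and B cell markers 4.29% and mast cell and basophil markers 10.6%. In flow-through WT libraries Lcn2 gave 91.9% of the neutrophil, Sparc 67.2% of the microglia and Vcan 49.8% of the monocyte and macrophage sum. How much of the flow-through signal of these 5 cytokines came from leukocytes left behind by the beads was not tested. The other 4 genes that were not called lower in CD45 libraries had shares above that of each of these 6 leukocyte genes. The shares were 13.2% for Ptgs2, 28% for Csf3, 49.4% for Il6 and 109% for Lif.

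**Figure D1:**
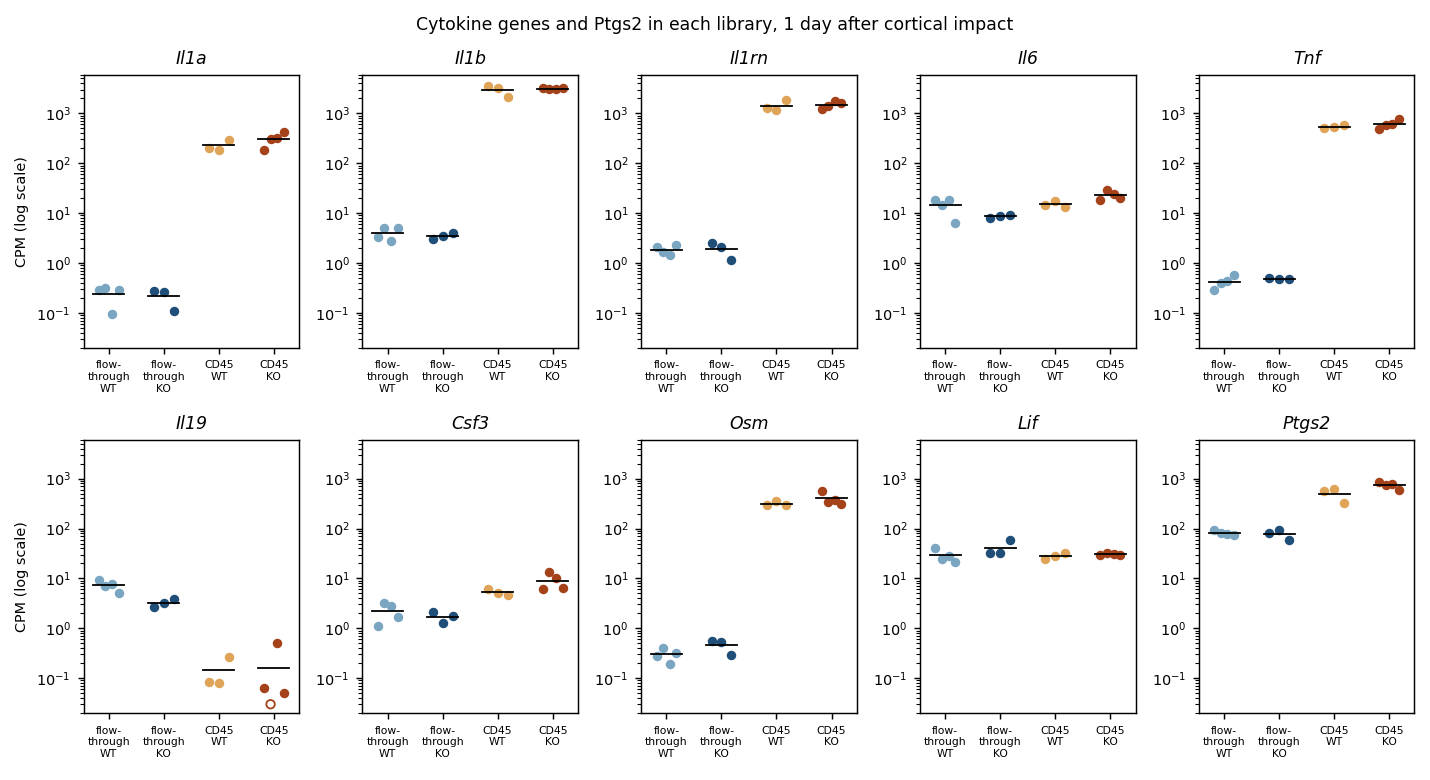
Level of each of the 10 genes in each of the 14 libraries, in CPM on a log axis, by fraction and genotype. Points are libraries, bars are group means, and the open point is a library with 0 counts, drawn at the foot of the axis. Il1a, Il1b, Il1rn, Tnf and Osm separate the fractions by about 3 orders of magnitude, Lif overlaps between them, and Il19 lies at 2.68 to 9.18 CPM in flow-through and at 0 to 0.518 CPM in CD45 libraries.

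Ptgs2 was abundant in both fractions. It lay at 91.9, 81.3, 78.7 and 74.7 CPM in flow-through WT and 80.7, 91.9 and 58.5 CPM in flow-through KO libraries. CD45 libraries held 553, 610.3 and 332 CPM in WT and 840.2, 746, 788 and 584 CPM in KO. No CD45 library reached down to the flow-through range, and CD45 WT replicate 3 was again the lowest of its fraction. The log2 fold change was 3.46 (SE 0.15, adjusted p = 2.35e-12 by edgeR). Csf3, the neutrophil growth factor, lay at 1.12, 3.2, 2.81 and 1.67 CPM in flow-through WT and 2.14, 1.25 and 1.72 CPM in flow-through KO libraries. It lay at 6.14, 5.19 and 4.59 CPM in CD45 WT and 6.16, 13.7, 10.1 and 6.28 CPM in CD45 KO libraries. All CD45 libraries lay above all flow-through libraries (log2 fold change 2.36, SE 0.25, adjusted p = 2.14e-07 by edgeR).

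Il6 and Lif, the other gp130 ligands of the set, differed less between fractions. Il6 lay at 18.5, 14.9, 18 and 6.38 CPM in flow-through WT and 8.01, 8.75 and 9.13 CPM in flow-through KO libraries. In CD45 libraries it lay at 14.8, 17.5 and 13.2 CPM in WT and 18.5, 29.4, 24 and 19.7 CPM in KO. The WT ranges of the fractions overlapped, while every CD45 KO library lay above every flow-through KO library. Over all 14 libraries Il6 was higher in the CD45 fraction by 1.26 log2 units (SE 0.20, adjusted p = 2.32e-05 by edgeR). Within WT libraries alone the difference was 0.68 (SE 0.32, adjusted p = 0.0788 by edgeR), and within KO libraries alone it was 1.89 (SE 0.18, adjusted p = 5.78e-06 by edgeR). With library totals in place of TMM it was 0.74 over all libraries (adjusted p = 0.00225 by edgeR), 0.074 within WT (adjusted p = 0.831) and 1.40 within KO libraries (adjusted p = 4.86e-05). Summed endothelial markers in flow-through libraries were 43.7% of their CD45 level and summed dissociation-stress genes 43.5%. Slc2a1 alone gave 57.9 to 62.2% of the endothelial sum in the flow-through groups and 41.2 to 45.1% in the CD45 groups. The median log2 fold change of the 18 endothelial genes, CD45 over flow-through, was 3.27. The part of endothelial cells and of dissociation in the Il6 and Csf3 levels was not tested.

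Lif lay at 41.5, 25.1, 27.6 and 21.1 CPM in flow-through WT and 32.3, 32.4 and 58.7 CPM in flow-through KO libraries. It lay at 24.5, 27.7 and 32.1 CPM in CD45 WT and 29.6, 32.6, 31.5 and 29.1 CPM in CD45 KO libraries. The fractions overlapped, and the sign of the difference turned with the scaling. The log2 fold change was 0.30 with TMM (SE 0.16, adjusted p = 0.101 by edgeR) and -0.23 with library totals (SE 0.16, adjusted p = 0.186 by edgeR). The median CPM was 32.3 in flow-through and 29.6 in CD45 libraries. Lif was called higher in CD45 libraries in 4 of 26 alternative settings, each with TMM factors: without flow-through WT replicate 1 (0.41), without flow-through KO replicate 3 (0.47), in WT libraries alone (0.59) and with the GC and length trend removed (0.57). In WT libraries alone with library totals it was -0.034 (adjusted p = 0.882 by edgeR).

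Il19 was the 1 gene of the set that was called lower in CD45 libraries. Its flow-through values were 9.18, 7.17, 7.66 and 5.0 CPM in WT and 2.68, 3.28 and 3.81 CPM in KO, a sum of 865 counts over 7 libraries. Its CD45 values were 0.0824, 0.0792 and 0.270 CPM in WT and 0.0638, 0, 0.518 and 0.0515 CPM in KO, a sum of 20 counts. In the CD45 KO library with 0 counts, a level of up to 0.146 CPM is allowed by counting error alone. The log2 fold change was -4.67 (SE 0.41, adjusted p = 1.79e-08 by edgeR). The median CD45 level of Il19 was 1.58% of its flow-through level. The same share was 1.76% for the astrocyte gene Gfap, 1.23% for the astrocyte water channel gene Aqp4 and 1.35% for the ependymal factor gene Foxj1. It was 2.44% for the myelin gene Mbp, 5.82% for the fibroblast gene Col1a1 and 11.5% for the neuron gene Snap25. These genes were picked to set a scale. For summed markers the share was 1.87% for ependymal, 1.88% for oligodendrocyte, 1.99% for astrocyte, 6.06% for fibroblast and meningeal and 8.62% for neuron lists. It was 28.4% for oligodendrocyte precursor, 31.9% for pericyte and smooth muscle and 49.1% for neuroblast lists. In CD45 WT libraries Vcan gave 94.85% of the precursor sum and Cd24a 99.4% of the neuroblast sum. How much of the CD45 signal of Il19 came from carried-over cells was not tested.

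Per length of exon, given as RPKM, the order of levels differed between fractions. In CD45 libraries the medians ran from Il1b (1667) through Tnf (357), Il1rn (251), Osm (152), Il1a (149.95), Ptgs2 (133), Il6 (7.61), Lif (6.81) and Csf3 (4.36) to Il19 (0.0690). In that order the library ranges of neighbours overlapped except between Il1b and Tnf, Ptgs2 and Il6, and Csf3 and Il19. In flow-through libraries the medians ran from Ptgs2 (17.6 RPKM) through Lif (7.44), Il19 (4.35), Il6 (3.76), Il1b (1.83), Csf3 (1.22), Il1rn (0.372), Tnf (0.286) and Osm (0.143) to Il1a (0.138), and the ranges of neighbours overlapped except between Csf3 and Il1rn. Counts of the 10 genes made up 0.549 to 0.705% of a CD45 library and 0.0117 to 0.0168% of a flow-through library. Il1b gave 38.1 to 54.8% of these counts in CD45 libraries, and Ptgs2 gave 42.4 to 63.7% of them in flow-through libraries.

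The receptors of these ligands were divided between the fractions. Il1r1, the signalling IL-1 receptor, was lower in CD45 libraries (log2 fold change -1.51, SE 0.10), and Il1r2, the decoy receptor that binds IL-1 without signalling, was higher (8.62, SE 0.27). Il1r1 lay at 5.84 to 8.25 RPKM in flow-through and 1.47 to 1.97 RPKM in CD45 libraries, while Il1r2 lay at 0.848 to 1.28 and 153 to 414 RPKM. Of the gp130 family, Osmr, the oncostatin M receptor, was lower in CD45 libraries (-3.68, SE 0.14), as was Il6st (-0.37, SE 0.07), though Il6st turned to 0.18 with the GC and length trend removed, and Il6ra, the IL-6 binding chain, was higher (4.23, SE 0.08). Osm and its receptor were thus highest in opposite fractions, with Osmr at 142 to 218 CPM in flow-through and 6.74 to 13.9 CPM in CD45 libraries. Lifr (0.12, SE 0.09, adjusted p = 0.25 by edgeR) and Il1rap, the shared IL-1 receptor chain (0.09, SE 0.11, adjusted p = 0.449 by edgeR), did not pass the test, and their direction rested on the scaling. They were called higher with the GC and length trend removed (0.53 and 0.48) and lower with library totals (-0.41, adjusted p = 0.000471, and -0.44, adjusted p = 0.000715, by edgeR). The median of Lifr was 36.2 CPM in flow-through and 26.6 CPM in CD45 libraries, and that of Il1rap 496 and 382 CPM.

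The other receptors were higher in CD45 libraries, with log2 fold changes of 1.48 for Tnfrsf1a, 6.97 for Tnfrsf1b, 10.21 for the G-CSF receptor gene Csf3r and 2.19 for Il20rb, a chain of the IL-19 receptor. Il20ra, its partner chain, had 15 counts over the 7 flow-through and 7 over the 7 CD45 libraries and did not pass the filter on low counts. Downstream of Ptgs2, the prostaglandin E synthase gene Ptges was lower in CD45 libraries (-0.58, SE 0.12), and the prostaglandin E receptor genes Ptger2 (6.96) and Ptger4 (4.21) were higher. The feedback genes Nfkbia (3.86), Nfkbiz (3.82) and Tnfaip3 (6.0), the decay factor gene Zfp36 (3.77) and the gp130 inhibitor gene Socs3 (2.60) were all called higher. By list, 18 of 22 tested genes of the IL-1 family and its receptors were higher and 3 lower, as were 11 and 7 of 22 in the IL-6 family, 16 and 0 of 16 in the TNF group, 17 and 1 of 18 among NF-kB genes and 10 and 9 of 21 in the prostaglandin pathway. These lists count again any of the 10 genes, receptors and feedback genes named above that belong to them. Of all genes tested 41.4% were called higher and 44.7% lower, and the counts in the prostaglandin pathway lie near those shares. Exons of Il1rap, Il6ra, Ptger2, Ptger4 and Zfp36 overlap genes on the opposite strand, so their values are uncertain.

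**Figure D2:**
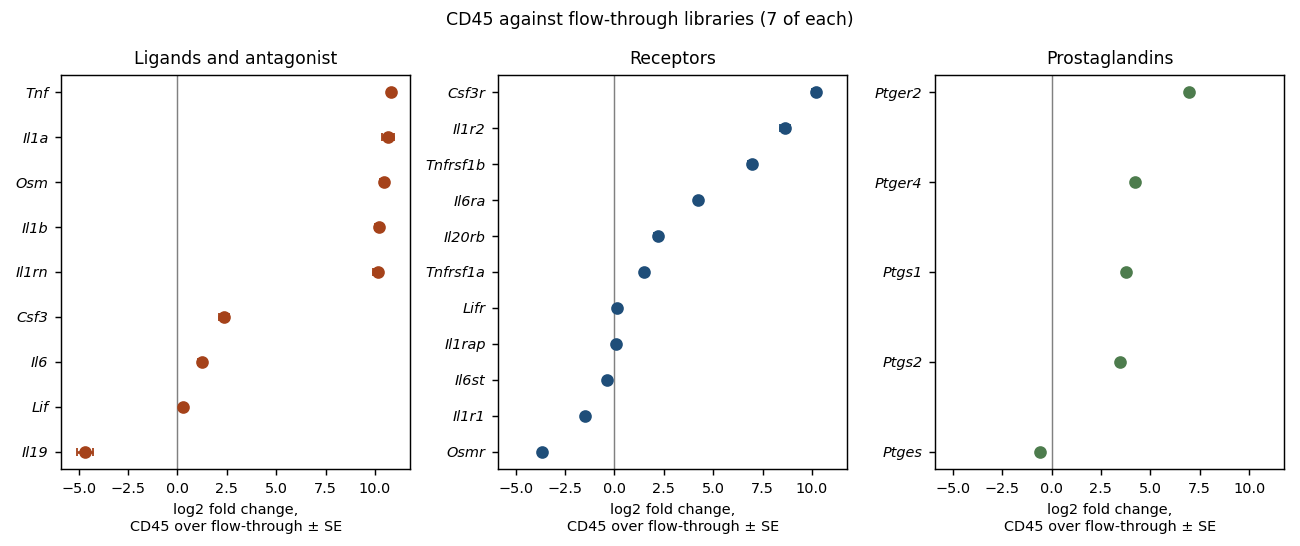
Fitted log2 fold change between fractions (CD45 over flow-through, points, with SE bars) for the cytokine genes, for receptors and for prostaglandin genes, from 7 libraries of each fraction. Ligands of the IL-1, TNF and OSM kind lie above 10, Lif lies near 0 and Il19 at -4.67, while among the receptors Osmr (-3.68) and Il1r1 (-1.51) lie on the flow-through side.

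The second comparison asks whether endothelial loss of EphA4 altered these transcripts in the flow-through. Il19 was lower in KO libraries and was the 1 gene called among the 8 that passed the filter on low counts, where 1.57% of 16546 genes were called, 1.42% higher and 0.151% lower. Il19 had a mean of 7.23 CPM ± 1.90 (SD, n = 4) over WT and of 3.29 CPM ± 0.539 (SD, n = 3) over KO libraries, a KO level 0.455 times that of WT. The log2 fold change was -1.13 (SE 0.23, adjusted p = 0.0226 by edgeR). All 3 KO libraries lay below all 4 WT libraries. Among the 10 genes Il19 alone had groups that did not overlap, where 12% of all genes tested did not overlap, 6.78% with KO lower.

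The Il19 call depended on which libraries were used. The direction held in all 15 alternative settings and the call in 8 of them. Leaving out 1 library at a time gave log2 fold changes of -1.28 to -0.98 and edgeR adjusted p of 0.00641 to 0.114. The call was lost without WT replicate 1 (adjusted p = 0.0598), WT replicate 2 (0.0692), WT replicate 3 (0.0766), KO replicate 1 (0.114) or KO replicate 2 (0.0725), each by edgeR. It was also lost when all 14 libraries were fitted together (-1.11, adjusted p = 0.637 by edgeR) and when the library left out was entered as labelled (-0.83, adjusted p = 0.963 by edgeR). Among 17 lists of cell markers, the summed level of 15 overlapped between genotypes in the flow-through, astrocyte and ependymal markers included. Neuron markers were at 718 to 1003 CPM in WT and 1091 to 1525 CPM in KO libraries, and neuroblast markers were at 1023 to 1263 CPM in WT and 688 to 927 CPM in KO libraries. Their part in the Il19 difference was not tested.

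In the flow-through Il6 missed the threshold. It had a mean of 14.4 CPM ± 5.88 (SD, n = 4) over WT and of 8.71 CPM ± 0.509 (SD, n = 3) over KO libraries, and the log2 fold change was -0.72 (SE 0.35, adjusted p = 0.52 by edgeR). WT replicate 4, at 6.38 CPM, lay below every KO library, and the other 3 WT libraries lay above every KO library. Without WT replicate 4 the log2 fold change was -0.97 (SE 0.14, adjusted p = 0.00466 by edgeR). Lif had a log2 fold change of 0.54 (SE 0.32, adjusted p = 0.62 by edgeR), and without KO replicate 3, which had the highest value at 58.7 CPM, it was 0.20. Csf3 (-0.33), Il1b (-0.19), Tnf (0.21), Il1rn (0.08) and Ptgs2 (-0.06) had log2 fold changes with SEs of 0.15 to 0.38 and did not pass. Il1a and Osm did not pass the filter on low counts. Fitted without it, their log2 fold changes were -0.19 (SE 0.67, adjusted p = 0.961 by edgeR) and 0.59 (SE 0.54, adjusted p = 0.756 by edgeR). The median over the 8 genes tested was -0.12, beside -0.0074 for all genes.

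**Figure D3:**
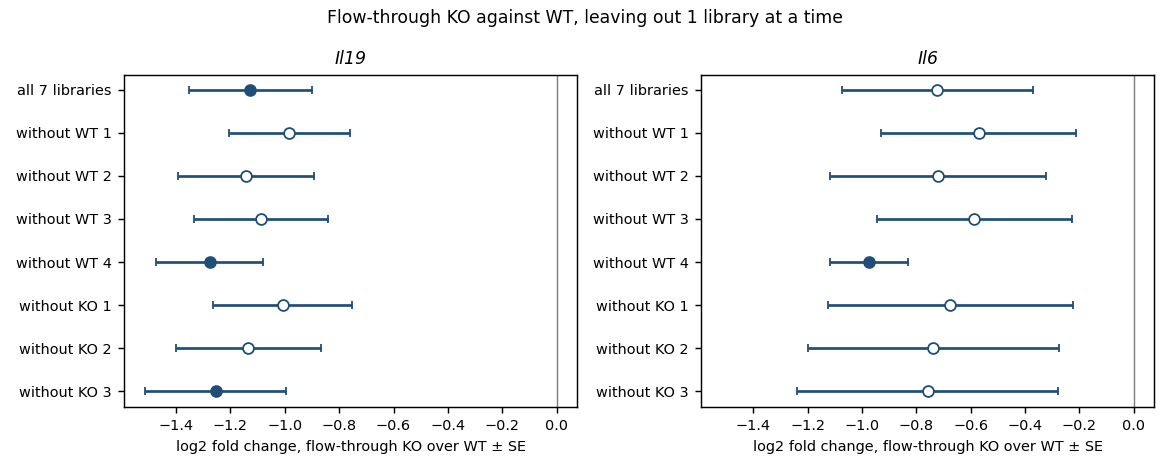
Log2 fold change of Il19 and Il6 in flow-through KO against WT libraries, with SE bars, in all 7 libraries and with 1 library left out at a time. Filled points passed an edgeR adjusted p of 0.05. Il19 stays between -1.28 and -0.98 and passes in 2 of the 7 reduced fits, and Il6 passes in 1, without WT replicate 4.

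Among receptors and pathway genes in the flow-through, Ptgs1, the constitutive cyclooxygenase, rose in KO libraries. It lay at 9.60, 7.84, 5.42 and 7.12 CPM in WT and 17.5, 11.9 and 12.1 CPM in KO libraries, without overlap (log2 fold change 0.91, SE 0.19, adjusted p = 0.0367 by edgeR). The call held in 7 of 15 alternative settings. It was lost without WT replicate 2, 3 or 4 or KO replicate 1 or 2 (edgeR adjusted p = 0.0537 to 0.168), and the log2 fold change lay between 0.70 and 1.06 over the 7 fits that leave out 1 library. It was also lost with the GC and length trend removed (0.89, adjusted p = 0.0576 by edgeR), in the joint fit of 14 libraries (0.92, adjusted p = 0.116 by edgeR) and with the left-out library entered as labelled, where the sign turned (-1.45, adjusted p = 0.962 by edgeR). Exons of Ptgs1 overlap Gm43621 on the opposite strand over 3.81% of their length. Of the prostaglandin pathway 1 of 20 tested genes rose and 0 fell, and of the IL-10 family and receptors 1 of 4 fell, which is Il19, where 1.42% of all genes tested were called higher and 0.151% lower. None of 19 IL-1 family genes, 19 IL-6 family genes, 14 TNF group genes and 17 NF-kB genes was called, with any of the 10 genes in them included. Osmr (-0.26, SE 0.11, adjusted p = 0.417 by edgeR), Ptges (-0.34, SE 0.13, adjusted p = 0.32) and Zfp36 (-0.28, SE 0.11, adjusted p = 0.334) did not pass.

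The third comparison sets KO against WT within the CD45 fraction. None of the 9 genes tested passed, and edgeR called 0 of 15660 genes (0%), with 4.43% at an unadjusted p under 0.05. DESeq2 called 5 genes. All 9 fitted changes were above 0, with a median log2 fold change of 0.33, beside 0.02 for all genes tested. The 3 with an unadjusted edgeR p under 0.05 were Il6, Csf3 and Ptgs2. The 9 values come from the same 7 libraries and are not independent.

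Il6 had a mean of 15.3 CPM ± 1.88 (SD, n = 3) over WT and of 22.7 CPM ± 4.83 (SD, n = 4) over KO libraries, and the log2 fold change was 0.57 (SE 0.17, adjusted p = 0.974 by edgeR). Csf3 had means of 5.36 CPM ± 0.802 (SD, n = 3) and 8.98 CPM ± 3.51 (SD, n = 4), and the log2 fold change was 0.74 (SE 0.29, adjusted p = 0.974 by edgeR). By CPM the WT and KO libraries of Il6 and Csf3 did not overlap, which made 2 of 10 genes, where 5.09% of all genes tested did not overlap, 2.92% with KO higher and 2.16% with KO lower. For Csf3 the nearest libraries were at 6.14 CPM in WT and 6.16 CPM in KO, and with TMM scaling or the deposited normalized values, settings added after the data were seen, Csf3 overlapped and Il6 did not. CD45 KO replicate 2 had the highest Il6 and Csf3 levels and the highest summed endothelial markers, 1004.5 CPM, where the other 6 CD45 libraries had 747 to 841 CPM. CD45 KO replicate 2 also had the highest summed neuron (253 CPM), astrocyte (266 CPM) and pericyte and smooth muscle (120 CPM) markers of the 7 CD45 libraries. The part of any of these cell types in the difference was not tested.

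Ptgs2 had a mean of 503 CPM ± 141 (SD, n = 3) over WT and of 733 CPM ± 104 (SD, n = 4) over KO libraries. Its log2 fold change was 0.54 (SE 0.20, adjusted p = 0.974 by edgeR). KO replicate 4, at 584 CPM, lay below WT replicate 2, at 610.3 CPM, and the groups overlapped. Without WT replicate 3 the log2 fold change was 0.33. Il1a (0.39, SE 0.29), Osm (0.33, SE 0.18), Tnf (0.15, SE 0.15), Lif (0.10, SE 0.11), Il1b (0.06, SE 0.17) and Il1rn (0.03, SE 0.19) did not pass either. Il19, with 11 counts over the 3 WT and 9 over the 4 KO libraries, did not pass the filter on low counts. Fitted without that filter, Il19 had a log2 fold change below 0 (-0.18, SE 1.02, adjusted p = 0.994 by edgeR). The signs of Il1b and Il1rn turned when 1 library was left out. Receptor and pathway genes did not pass, among them Ptger2 (-0.53, SE 0.12, adjusted p = 0.974 by edgeR).

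**Figure D4:**
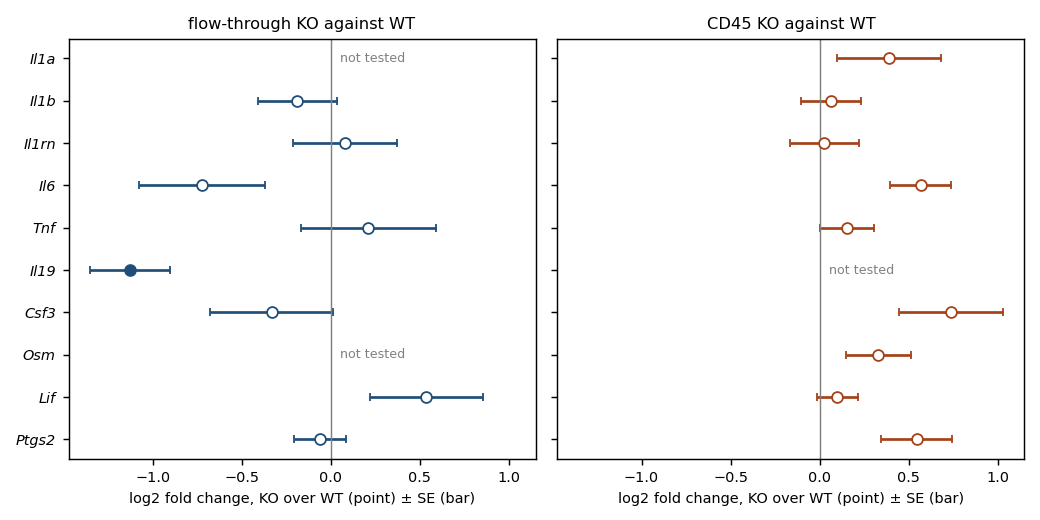
Log2 fold change of each gene in KO against WT libraries, with SE bars, in the flow-through (4 WT, 3 KO) and in the CD45 fraction (3 WT, 4 KO). The filled point, Il19 at -1.13 in the flow-through, passed an edgeR adjusted p of 0.05, open points did not, and genes below the filter on low counts are marked as not tested.

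The ratio of Il1b to Il1rn, agonist to antagonist, varied among CD45 libraries. In counts it was 2.72, 2.77 and 1.14 in WT and 2.62, 2.18, 1.79 and 2.03 in KO libraries. The groups averaged 2.21 ± 0.922 (SD, n = 3) and 2.15 ± 0.349 (SD, n = 4), a difference smaller than the spread within either. WT replicate 3 had the lowest ratio, the lowest Il1b and Ptgs2 levels and the highest Il1rn level (1827 CPM) of its fraction. It also had the lowest summed level of monocyte and macrophage markers, 25174 CPM against 29917 to 30849 CPM in the other 6 libraries. Its border-associated macrophage markers (1156 CPM), a list that shares F13a1 with the former, and its oligodendrocyte precursor markers (413 CPM) were lowest too. Its neutrophil markers (12589 CPM) were the highest of the fraction. So were its oligodendrocyte (1538 CPM), neuroblast (635 CPM), fibroblast and meningeal (61.1 CPM), mast cell and basophil (10.1 CPM) and ependymal (6.63 CPM) markers. KO replicate 1, with the highest Osm (577 CPM) and Ptgs2 (840.2 CPM) levels, had the lowest neutrophil markers (6796 CPM) and the highest dissociation-stress genes (13171 CPM). The part of these cell types and of dissociation in the cytokine levels was not tested. The summed markers of all 17 lists overlapped between genotypes in CD45 libraries.

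**Figure D5:**
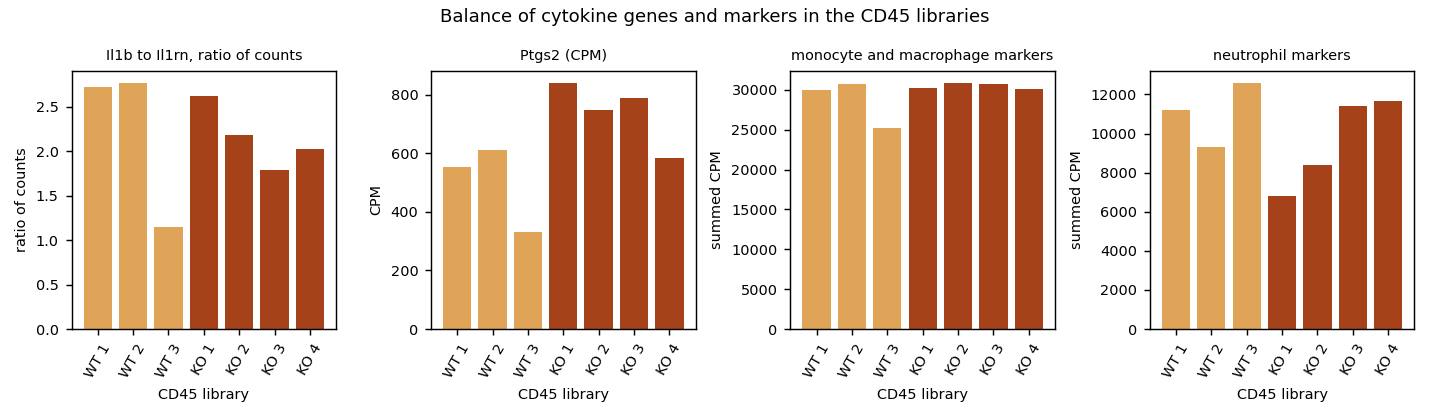
Ratio of Il1b to Il1rn counts, level of Ptgs2 in CPM, and summed CPM of monocyte and macrophage markers and of neutrophil markers, in the 3 WT (light) and 4 KO (dark) CD45 libraries. Bars are single libraries. WT replicate 3 has the lowest ratio (1.14), the lowest Ptgs2 (332 CPM), the lowest monocyte and macrophage sum and the highest neutrophil sum.

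The interaction test asks whether the genotype difference itself differed between fractions. None of the 10 genes passed, and edgeR called 0 of 18098 genes (0%), with 7.21% at an unadjusted p under 0.05, while DESeq2 called 45. Il6, which had a fitted change below 0 in the flow-through and above 0 in the CD45 fraction, had the largest difference, 1.26 log2 units (SE 0.40, adjusted p = 0.559 by edgeR). Ptgs2 (0.58, SE 0.27, adjusted p = 0.681 by edgeR) and then Csf3 (1.05, SE 0.50, adjusted p = 0.693 by edgeR) came next by p-value. For Il19 the difference was 0.73 (SE 1.01, adjusted p = 0.895 by edgeR), so its lower level in the flow-through of KO mice is not shown to be particular to that fraction. None of the 10 genes was called in any of the 21 alternative settings of this test.

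Profiles over the 14 libraries were also compared between genes, as the root mean square (RMS) difference of log2 CPM after each gene was centred on its own mean. This is a description, and it is led by the difference between fractions. Il1a and Il1rn were nearest to each other (0.28 log2 units). Tnf was nearest to Clec4e (0.19) and Itgam (0.29), Il1b to Pirb (0.25) and Itgb2 (0.26), and Osm to Msr1 (0.28) and Ctss (0.29). Ptgs2 was nearest to Tnfaip8 (0.21) and Psmb9 (0.26), and Lif to Nudt18 (0.26) and Bysl (0.26). Csf3 was nearest to Acer2 (0.36) and the endothelial tight junction gene Cldn5 (0.37), and Il6 to Vil1 (0.32) and Zfp119b (0.36). Il19 had the most distant neighbours, Fgfr4 (0.56) and Sync (0.57), and its nearest gene within the set, Lif, was 2.51 log2 units away.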

How the data were processed

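RNA was sequenced from stranded mRNA libraries made with 14 PCR cycles, per the labels' protocols. The authors deposited raw gene counts, whole numbers with no scaling, with a table for each fraction, and a companion table holds a normalized signal that the authors made by DESeq2, which equals the counts divided by 1 factor per library. Reads were trimmed with Trim Galore and aligned with STAR 2.7.9a to GRCm38, per the submitters' processing notes. The sources used here do not give the counting program, its strand option or the annotation. Names, exon lengths and untranslated regions were taken from GENCODE M21, which matched 33130 of 33223 gene IDs.

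Counts were tested over the whole table with edgeR 4.0.16 in R 4.3.3 (quasi-likelihood test, robust, TMM scaling, filterByExpr with minimums of 10 counts per library and 15 overall). Genes were called at a Benjamini-Hochberg adjusted p under 0.05. The edgeR fit was tested on simulated counts of the flow-through genotype comparison, with changes placed only in genes with higher counts. Every simulated gene had the same setting for the spread between libraries. The simulation therefore does not cover genes with low counts or a wide spread, such as Il1a, Osm and Il6 in the flow-through. Values per library are CPM by library total, means with an SD are TMM-scaled CPM within a fraction, and RPKM uses the union of exons. An SE is the fold change divided by the square root of the F statistic. Libraries were grouped by their labels, and replicate numbers, in accession order, are names only. The flow-through WT library numbered 5, whose column the CD45 tables hold, was left out. Alternatives were DESeq2 1.42.0, RLE and upper-quartile scaling, library totals with no TMM factors between fractions (added after the data were seen), no filter, a minimum of 1 CPM, a GC and length correction, each library left out, a joint fit, fits within a genotype, and the left-out library as labelled. The genes named are the 10, their receptors and partners, any gene of the pathway lists called between genotypes, Epha4, Ptprc and the 2 nearest profiles of each gene, of which 1 is not reported here. Leukocyte and other marker genes beside shares were named to set a scale. The 10 genes and all lists were chosen with earlier results of these data known. PCR reads are not independent molecules, so limits from counts cover counting error only.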

Additional observations from a re-analysis of the deposited data

Results flagged for a closer look

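The library labelled flow-through WT replicate 5, which no comparison used, held 7 of the 10 genes above every other flow-through WT library. It had 223 CPM of Il1a, 2955 CPM of Il1b, 1129 CPM of Il1rn, 665 CPM of Tnf, 377 CPM of Osm, 613 CPM of Ptgs2 and 5.01 CPM of Csf3. Of the 10 genes, 9 lay within the range of the CD45 libraries and 2 within the range of the other flow-through libraries.

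In 20 groups of libraries checked for a value apart from the rest, 2 were found, where chance gives about 1 in 20. That rate is the nominal level of the rule for normally distributed values and was not measured here. Only the groups of 4 libraries, flow-through WT and CD45 KO, were checked, and the groups of 3 were not. Il1a was at 0.0971 TMM-scaled CPM in flow-through WT replicate 3, from 2 counts, with a gap to the next library of 0.836 of the group's range. Il19 was at 0.529 TMM-scaled CPM in CD45 KO replicate 3, from 6 counts, with a gap of 0.883 of the range.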

How the results depend on the processing

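The number of genes called between genotypes in the flow-through was 260, and it was 416 with DESeq2, 629 with no filter, 30 in the joint fit of 14 libraries, 0 with the left-out library entered as labelled, and 134 to 287 when 1 library was left out. In the CD45 fraction it was 0, 5 with DESeq2, and 0 to 1 when 1 library was left out. In the interaction it was 0, 45 with DESeq2, 15 with no filter, and 0 to 2 when 1 library was left out. In CD45 libraries 2 of the 10 genes had groups that did not overlap by CPM, and 1 with TMM-scaled CPM or with the deposited normalized values, both added after the data were seen. The cause of these changes was not tested.

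With the left-out library entered as labelled, the flow-through log2 fold changes turned to -7.47 for Il1rn, -8.70 for Tnf, -1.45 for Ptgs1 and 0.019 for Osmr, and the interaction turned to 7.37 for Il1rn, 8.72 for Tnf and 8.18 for Osm. With the GC and length trend removed, Ptgs2 turned to 0.048 in the flow-through, Il1rn to -0.078 in the CD45 fraction, and Il6st to 0.18 between fractions. Between fractions, Il1rap turned to -0.16 and Lifr to -0.13 with upper-quartile scaling, and Il1rap to -0.014 in KO libraries alone. With library totals in place of TMM, Lif turned to -0.23, Lifr to -0.41 and Il1rap to -0.44. Within WT libraries these were -0.034, -0.41 and -0.38, and within KO libraries -0.43, -0.41 and -0.50. Leaving out 1 library moved the flow-through change of Il1rn between -0.18 and 0.36 and of Ptgs2 between -0.21 and 0.11, and the CD45 change of Il1b between -0.13 and 0.21 and of Il1rn between -0.11 and 0.25. It moved the interaction of Il1rn between -0.35 and 0.21, of Tnf between -0.26 and 0.067 and of Il19 between -0.64 and 1.56. Between fractions the calls of 8 of the 10 genes held in all 26 alternatives, and the exceptions were Il6 and Lif. No paired analysis was possible because the labels carry no replicate numbers. Low counts of Il1a, Tnf and Osm in the flow-through and of Il19 in CD45 libraries limit what can be tested there.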

Other observations

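Other genes of the same pathways, named after their values were seen, were also divided between the fractions by edgeR. Of all 18098 genes tested, 86.1% were called between fractions, 41.4% higher and 44.7% lower in CD45 libraries, so a call alone is common. The alarmin gene Il33 was lower in CD45 libraries (log2 fold change -6.03, SE 0.13), while Casp1, whose product cleaves IL-1β, was higher (4.79, SE 0.13). Prostaglandin D synthases separated, with Ptgds lower (-5.11, SE 0.13) and Hpgds higher (7.84, SE 0.19), and the thromboxane synthase gene Tbxas1 was higher (8.47, SE 0.16). In the gp130 family Clcf1 (-1.51, SE 0.10) was lower and Ebi3 (7.55, SE 0.18) was higher. Of the transforming growth factors, Tgfb1 was higher (6.0, SE 0.13) and Tgfb2 (-3.83, SE 0.15) and Tgfb3 (-2.23, SE 0.17) were lower. Exons of Clcf1, Ebi3, Tbxas1, Tgfb2 and Tgfb3 overlap other genes, over 23.4% of their length for Ebi3, so these values are uncertain.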
